A study of Mus musculus with 4 samples.

Results

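The genes described here encode the mouse MHC class II peptide-binding chains and the proteins that load and switch them on: Cd74 (the invariant chain), H2-Aa and H2-Ab1 (I-A), H2-Eb1 (the beta chain of I-E), H2-DMa and H2-DMb1 (DM), H2-Oa and H2-Ob (DO), and Ciita. They were found by name, through their gene IDs, as 9 of the 50600 genes counted. The study measured gene expression by RNA-seq in mouse regulatory T cells, a CD4+ lineage that suppresses immune responses, of strain C57BL/6NJ. All 4 libraries are primary cells of this 1 strain and form 1 group, numbered by the labels as biological replicates 1 to 4; no treated or control arm was analysed here. The labels give age and stage as unknown and sex as not collected, name 1 donor for all 4 libraries, and point to a protocol for CD4+ T cell differentiation. The output names in the file headers add that the cells were activated, with a time of 24 h. The assay is named total RNA-seq, yet the linked library protocol is named for polyA+ RNA.

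Class II molecules display peptides from internalised proteins to CD4+ T cells. The invariant chain escorts newly made class II chains to endosomes and blocks their groove until proteases reduce it to a short fragment, which DM then exchanges for peptide; DO binds DM and inhibits it. Transcription of the class II chains, the invariant chain and DM is driven by Ciita, a coactivator that does not bind DNA itself but joins the RFX, NF-Y and CREB factors seated on the X and Y boxes of class II promoters. B cells, dendritic cells and thymic epithelium express most of the set, activated human T cells express class II, and mouse T cells are known for having little or none. Mice with the H2-b haplotype, such as C57BL/6, have a defective I-E alpha gene and therefore display no I-E.

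The libraries held 38590127 to 93035969 fragments assigned to genes, and replicate 4 was the deepest. Regulatory and T cell genes were abundant in all of them: Foxp3, the lineage-defining factor, had 93.0 to 125 TPM (a gene's share of all transcripts, computed from its fragments and its length), Il2ra 702 ± 44.1 (SD, n = 4), Ctla4 245 ± 26.5, Trac 1436 ± 156 and Lck 823 ± 64.5. Replicate 1 stood apart in composition, with 88.2% of TPM in protein-coding genes against 95.6% to 96.6% in the others. The libraries also went against their single donor label, since Xist, in order of replicate number, had 100.4, 88.7, 0.716 and 0.603 TPM, whereas Y-linked Ddx3y had 0.159, 0.101, 46.1 and 40.6. The p-values below measure only the spread between these libraries, which nothing in the labels ties to separate animals or cultures.

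Cd74 RNA was abundant while RNA of the chains it escorts was much lower. H2-DMa came next, 7.18 times lower, and the class II alpha and beta chains averaged 1.56 to 6.03 TPM. Of protein-coding genes, 93.0% had a lower mean than Cd74, against 54.0% for H2-Aa, 54.5% for H2-Ab1 and 60.1% for H2-Eb1. Of the 9 genes, 7 had a mean of at least 1 TPM, a level that 47.7% of the 21764 protein-coding genes reached, and 2 (Cd74 and H2-DMa) had at least 10 TPM, which 36.2% reached. At 0.5 TPM the count was again 7, against 50.2% of protein-coding genes, and at 2 TPM it was 4, against 45.1%. Ciita and H2-DMb1 stayed under 1 TPM in all 4 libraries. In order of mean TPM, Cd74 was followed by H2-DMa, H2-Oa, H2-Eb1, H2-Ob, H2-Ab1, H2-Aa, Ciita and H2-DMb1. Neighbours whose ranges over the libraries overlapped were H2-Oa and H2-Eb1, H2-Ob and H2-Ab1, H2-Ab1 and H2-Aa, and Ciita and H2-DMb1. In bulk RNA, fewer cells of a type and less RNA per cell cannot be told apart, so these levels do not say whether all cells or a few carried the transcripts.

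**Figure D1:**
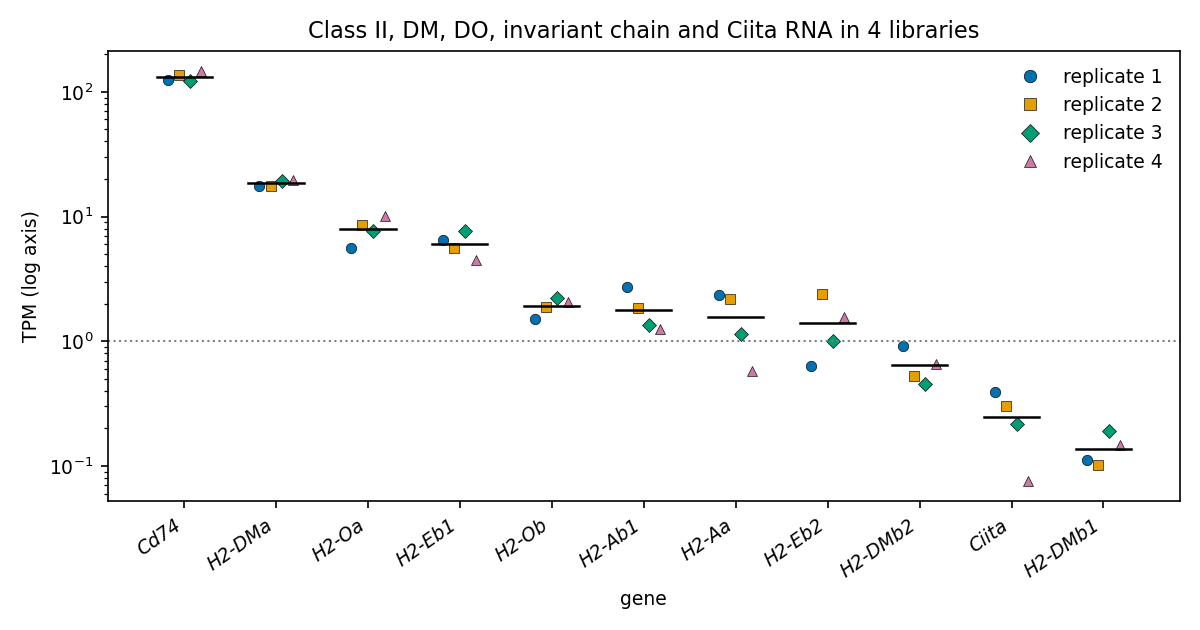
TPM (log axis) of the 9 genes and of the related H2-DMb2 and H2-Eb2, ordered by mean; each symbol is 1 library, bars are 4-library means and the dotted line marks 1 TPM. Cd74 lies between 122 and 146 TPM, above every other gene in all 4 libraries, and Ciita and H2-DMb1 lie under 1 TPM in all 4.

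Cd74 (ENSMUSG00000024610.14, mm10 chromosome 18, 60803848 to 60812646, plus strand) had 125, 136, 122 and 146 TPM in replicates 1 to 4, from 2134, 2549, 2417 and 5683 fragments. Its mean was 132 ± 10.99 TPM (SD, n = 4), and 93.0% of protein-coding genes had a lower mean. The 4 libraries lay close together, the highest (replicate 4) being 1.197 times the lowest (replicate 3). The coefficient of variation was 8.30%, against 1.88% from counting fragments alone. None of the 50-base stretches in its annotated transcripts occurs in a transcript of another gene.

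The peptide-binding chains were far lower. H2-Aa, the I-A alpha chain (ENSMUSG00000036594.14, chromosome 17, 34282744 to 34287827, minus strand), had 2.34, 2.17, 1.14 and 0.581 TPM, from 53, 54, 30 and 30 fragments. H2-Ab1, the I-A beta chain (ENSMUSG00000073421.5, chromosome 17, 34263209 to 34269418, plus strand), had 2.73, 1.84, 1.35 and 1.26 TPM, from 54, 40, 31 and 57 fragments. Both were highest in replicate 1 and lowest in replicate 4. The ratio of H2-Aa to H2-Ab1 was 0.857, 1.18, 0.845 and 0.460, above 1 in 1 of 4 libraries, so neither I-A chain was the higher in every library.

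H2-Eb1, the I-E beta chain (ENSMUSG00000060586.10, chromosome 17, 34305877 to 34316199, plus strand), was the most abundant of the 3 peptide-binding chains in every library. It had 6.43, 5.60, 7.64 and 4.47 TPM, from 92, 88, 127 and 146 fragments, which is 2.58 to 7.70 times H2-Aa and 2.36 to 5.66 times H2-Ab1. Its partner was not seen: the I-E alpha pseudogene H2-Ea-ps had 0 fragments in all 4 libraries, which allows up to 3 fragments or 0.0322 to 0.0777 CPM (fragments relative to the library's total). A second I-E beta gene, H2-Eb2, had 0.636, 2.39, 1.00 and 1.56 TPM, and the pseudogene H2-Pb had 0 fragments throughout.

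Set against these chains within each library, Cd74 was 10.9, 14.2, 12.1 and 23.1 times the sum of H2-Aa, H2-Ab1 and H2-Eb1. On the log2(TPM + 1) scale, which understates folds of low genes, Cd74 exceeded the mean of the 3 chains by 4.80, 5.14, 5.13 and 5.77, a mean of 5.21 ± 0.41 (SD, n = 4). The difference was above 0 in 4 of 4 libraries, and when the signs of the 4 differences were flipped in all ways, 2 of 16 patterns were as extreme (exact two-sided permutation test, p = 0.125). No smaller p is possible with 4 libraries.

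X and Y boxes are the promoter elements through which Ciita is known to act. Letters that match their cores are shown for the 4 members whose windows hold them outside the counted exons or at their edge. In the RefSeq windows from 250 bases before to 50 after each start (GRCm38.p6, the mm10 assembly), GNAAC, the core of the X box bound by RFX, was sought ahead of ATTGG, the core of the Y box bound by NF-Y, with 28 to 38 bases from start to start, on both strands. The letters and the spacing were chosen after the windows of these genes had been seen. Capitals mark both matches, and each line runs 5′ to 3′ on the gene's strand:
H2-Aa, chr17:34287861-34287910, minus strand: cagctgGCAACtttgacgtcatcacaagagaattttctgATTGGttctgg
H2-Eb1, chr17:34305770-34305818, plus strand: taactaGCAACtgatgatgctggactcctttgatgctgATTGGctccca
H2-Oa, chr17:34092297-34092346, plus strand: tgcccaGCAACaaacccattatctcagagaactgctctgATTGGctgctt
H2-Ob, chr17:34238812-34238858, plus strand: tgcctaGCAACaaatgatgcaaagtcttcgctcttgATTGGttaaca
The starts of the GNAAC and ATTGG matches lay 33 bases apart in H2-Aa, 32 in H2-Eb1, 33 in H2-Oa and 30 in H2-Ob. H2-DMb1 held the pair as well, 33 bases apart, so 5 of the 6 genes with a window did; of the related genes H2-Eb2 held it and H2-DMb2 did not. Either strand of 1.52% of all 32851 windows holds the pair, whereas GNAAC alone is in 79.6% and ATTGG alone in 33.8%. Since the letters and spacing were chosen on these genes, their count is not a test against that share. Both H2-DMa windows lacked the pair, but the RefSeq starts they surround lie 12350 and 9664 bases upstream of the gene model that was counted. Cd74, Ciita and H2-Ab1 have no entry in the window table. A match describes letters only, and binding was not measured.

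Among I-A, DM and DO, the chains of DM were the most unequal. H2-DMa (ENSMUSG00000037649.9, chromosome 17, 34135182 to 34139101, plus strand) had 17.6, 17.5, 19.1 and 19.5 TPM, from 350, 382, 440 and 881 fragments. It was the steadiest of the 9 genes, with a coefficient of variation of 5.41% against 4.65% from counting alone. H2-DMb1, its beta chain (ENSMUSG00000079547.3, chromosome 17, 34153072 to 34160230, plus strand), had 2, 2, 4 and 6 fragments, or 0.111, 0.101, 0.192 and 0.147 TPM, a spread within counting error. The second beta gene, H2-DMb2, had 0.919, 0.528, 0.458 and 0.658 TPM, from 19, 12, 11 and 31 fragments.

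H2-DMa thus exceeded H2-DMb1 by 158, 173, 99.5 and 133 times, and the summed beta genes by 17.1, 27.8, 29.4 and 24.2 times, in 4 of 4 libraries. The beta genes are near-identical in part: 22.7% of the 50-base stretches of H2-DMb1 transcripts and 11.3% of its 100-base stretches occur in a transcript of H2-DMb2. Reads that map equally well to both were not asked for in the counting, so both beta levels are uncertain. H2-DMa shares 8.43% of the 50-base stretches of its annotated transcripts, with the neighbouring Brd2. The exons of H2-DMa that were counted overlap those of other genes by 0 bases on either strand. Read length is not stated in the labels or headers.

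DO, the inhibitor of DM, had RNA of both chains. H2-Oa (ENSMUSG00000024334.8, chromosome 17, 34092340 to 34095234, plus strand) had 5.60, 8.54, 7.65 and 10.05 TPM, from 89, 149, 141 and 364 fragments. H2-Ob (ENSMUSG00000041538.15, chromosome 17, 34238903 to 34245907, plus strand) had 1.495, 1.89, 2.21 and 2.07 TPM, from 57, 79, 98 and 180 fragments. Replicate 1 was the lowest library for both chains. H2-Oa was 3.75, 4.53, 3.45 and 4.85 times H2-Ob, a narrower gap than that of the DM chains. An antisense gene, BC051537, overlaps 15.2% of H2-Oa's exon bases, and had 0 fragments in the strand-aware counts.

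For the mean of H2-DMa and H2-DMb1 against the mean of H2-Oa and H2-Ob, neither the direction nor the size held across scales. H2-DMb2, the higher of the DM beta genes (0.641 TPM against 0.138 for H2-DMb1), was not part of this contrast. It thus rests in part on H2-DMb1, with 2 to 6 fragments per library. On the log2(TPM + 1) scale DM minus DO was 0.17, -0.22, -0.11 and -0.27, a mean of -0.11 ± 0.19 (SD, n = 4) that was above 0 in 1 of 4 libraries. Of the 16 sign patterns 6 were as extreme (exact two-sided permutation test, p = 0.375), in a design where p cannot fall below 0.125. The difference was 0.18 ± 0.13 when computed from FPKM and -0.93 ± 0.23 with a pseudocount of 0.1. Without replicate 1 it was -0.20 ± 0.08, without replicate 2 -0.07 ± 0.22 and without replicate 4 -0.05 ± 0.20 (SD, n = 3).

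**Figure D2:**
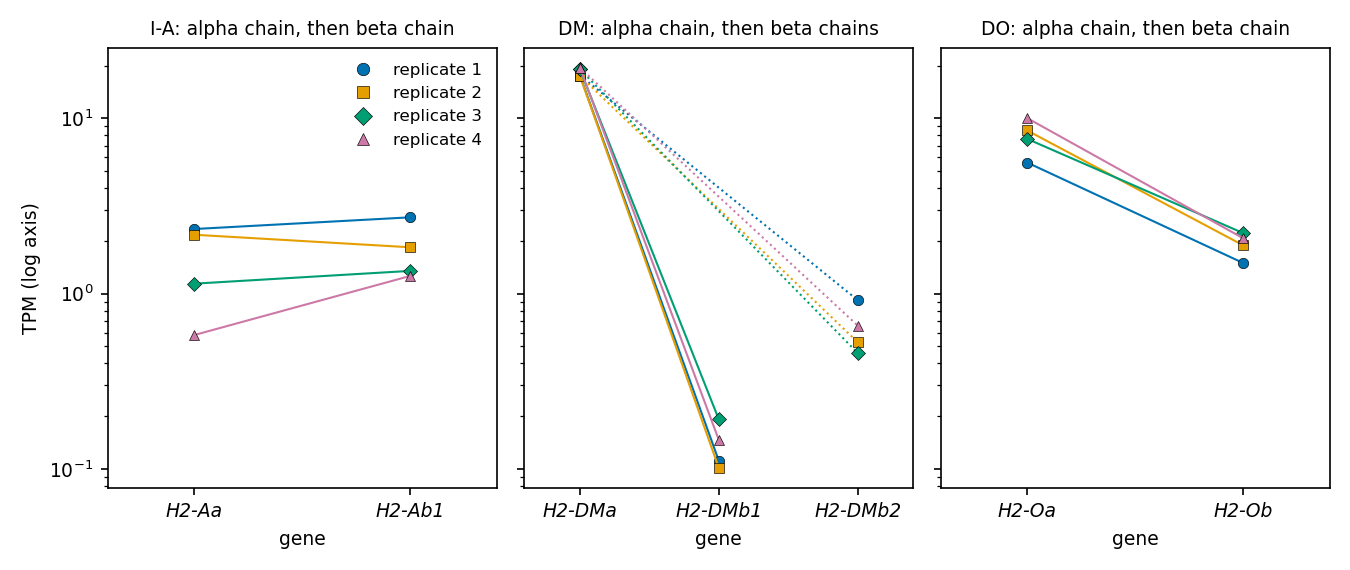
TPM (log axis) of the alpha and beta chains of I-A, DM and DO, with 1 symbol per library; solid lines join the alpha chain to its beta chain and dotted lines join H2-DMa to H2-DMb2. The I-A lines are nearly level except in replicate 4, H2-Oa lies 3.45 to 4.85 times above H2-Ob, and H2-DMa lies 99.5 to 173 times above H2-DMb1.

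Ciita, the coactivator (ENSMUSG00000022504.9, chromosome 16, 10488178 to 10527564, plus strand), was low, though above the floor of 3 fragments in all 4 libraries. It had 25, 21, 16 and 11 fragments, or 0.394, 0.301, 0.217 and 0.0759 TPM. The 95% exact binomial interval, which covers counting error only, was 0.255 to 0.581 TPM in replicate 1 and 0.0379 to 0.136 TPM in replicate 4, so these do not overlap. Its highest library was 5.18 times its lowest, the widest range among the 9 genes.

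The factors that seat Ciita on promoters were all present. Each of the 8 genes listed for this complex had a mean of at least 1 TPM, and 7 had at least 10 TPM, levels that 47.7% and 36.2% of protein-coding genes reached. Of the RFX subunits, Rfx5 had 16.9 ± 1.33 TPM (SD, n = 4), Rfxap 26.3 ± 5.02 and Rfxank 9.47 ± 0.772. The NF-Y subunits Nfya, Nfyb and Nfyc had 63.5 ± 1.41, 40.9 ± 3.14 and 56.6 ± 1.02 TPM. Creb1, which binds cyclic AMP response elements, had 31.2 ± 3.37 TPM and the related Atf1 had 106 ± 8.41.

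Of 12 genes known to act upstream of Ciita, 10 had at least 1 TPM, against 47.7% of protein-coding genes. At least 10 TPM was reached by 9, against 36.2% of protein-coding genes. The interferon regulatory factors Irf8 and Irf4 had 957 ± 16.3 and 731 ± 42.4 TPM, and the interferon receptor kinase Jak1 had 156 ± 10.3. Spi1, which encodes the myeloid and B cell factor PU.1, had 0 fragments in all 4 libraries.

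Endosomal genes that process antigen and the invariant chain reached at least 1 TPM in 11 of 13 cases, and all 11 had at least 10 TPM. Among protein-coding genes, 47.7% and 36.2% reached these levels. The highest were the cathepsin gene Ctsz at 304 ± 20.5 TPM, the thiol reductase gene Ifi30 at 288 ± 23.7 and the lysosomal membrane gene Lamp1 at 191 ± 14.7. Of the genes for surface turnover, Cd83, which stabilises class II at the cell surface, had 122 ± 5.11 TPM. March1 and March8 encode ubiquitin ligases that remove class II; March1 had 0 fragments in all 4 libraries and March8 had 1.97 ± 0.271 TPM.

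Cd74 is also known as the surface receptor for the cytokine MIF, and genes of that role were high. Mif had 1541, 1606, 1576 and 1797 TPM, which is 11.8 to 12.9 times Cd74 in each library. Cd44, the signalling partner of Cd74, had 108 ± 7.70 TPM, the MIF homologue Ddt 68.6 ± 8.63 and the chemokine receptor Cxcr4 11.7 ± 1.399. The other chemokine receptors for MIF were at the floor, with at most 2 fragments of Cxcr2 in a library and 0 of Ackr3. Receptors that bind class II on other cells were high, with Cd4 at 540 ± 31.7 TPM and Lag3 at 102 ± 8.07.

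The class II interval of chromosome 17, from 34092340 to 34316199, places these levels beside their neighbours. It spans 224 kb and holds 19 counted genes, 13 of them protein-coding and 7 of them genes described above. The 5 protein-coding genes in it that are not class II genes were all higher than any class II gene there. Brd2, a chromatin reader, had 194 ± 1.95 TPM (SD, n = 4), and the immunoproteasome genes Psmb8 and Psmb9 had 161 ± 12.6 and 32.7 ± 3.43. The class I peptide transporter genes Tap1 and Tap2 had 91.5 ± 3.75 and 81.6 ± 2.45. A processed pseudogene, Gm20493, had 0 fragments.

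**Figure D3:**
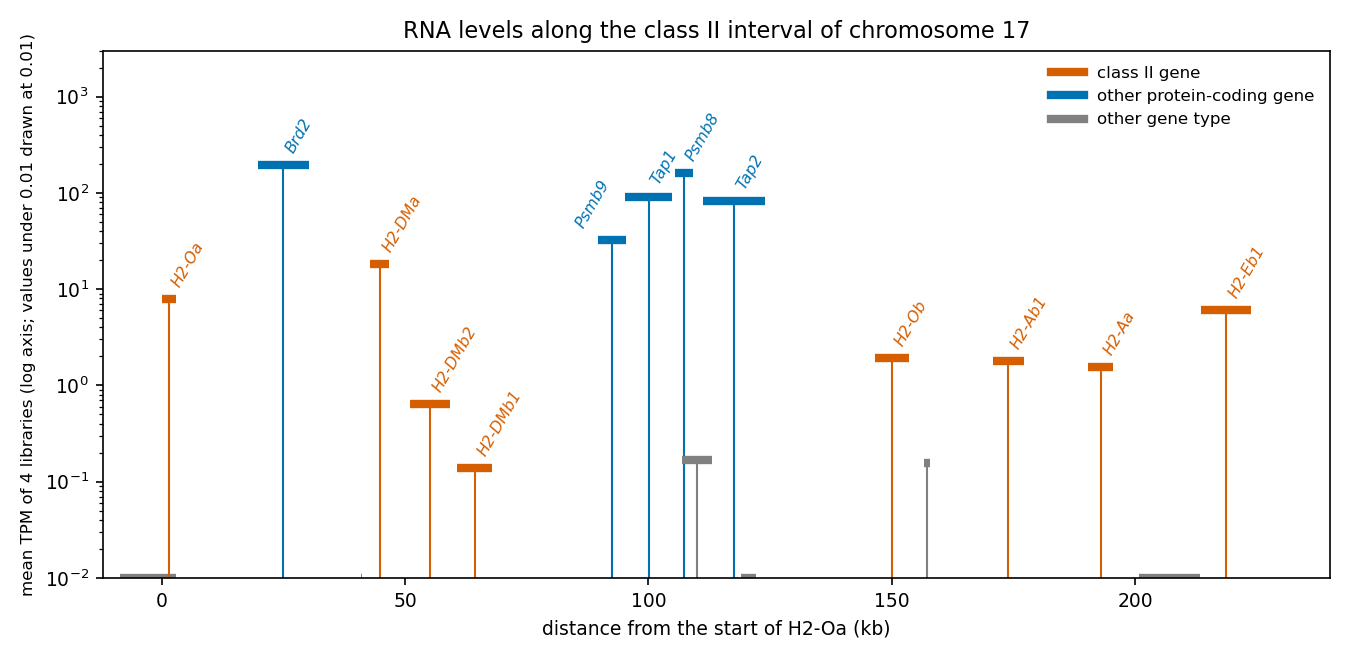
Mean TPM of 4 libraries (log axis) of each counted gene along the class II interval, against distance from the start of H2-Oa in kb; horizontal bars span the gene. The 5 blue bars lie between 32.7 and 194 TPM, above all orange class II bars, of which H2-DMa is the highest at 18.4 TPM.

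The genes did not share 1 order of libraries. Ciita, H2-Aa and H2-Ab1 were highest in replicate 1 and lowest in replicate 4, H2-Oa was highest in replicate 4 and lowest in replicate 1, and H2-Eb1 was highest in replicate 3 and lowest in replicate 4. The highest and the lowest library of each of the 9 genes stayed the same under 4 other scalings. Replicates 1 and 2, in which H2-Aa, H2-Ab1 and Ciita were higher, are the libraries with Xist RNA, and replicate 1 is the one with the lower protein-coding share; the part of either in these values was not tested.

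**Figure D4:**
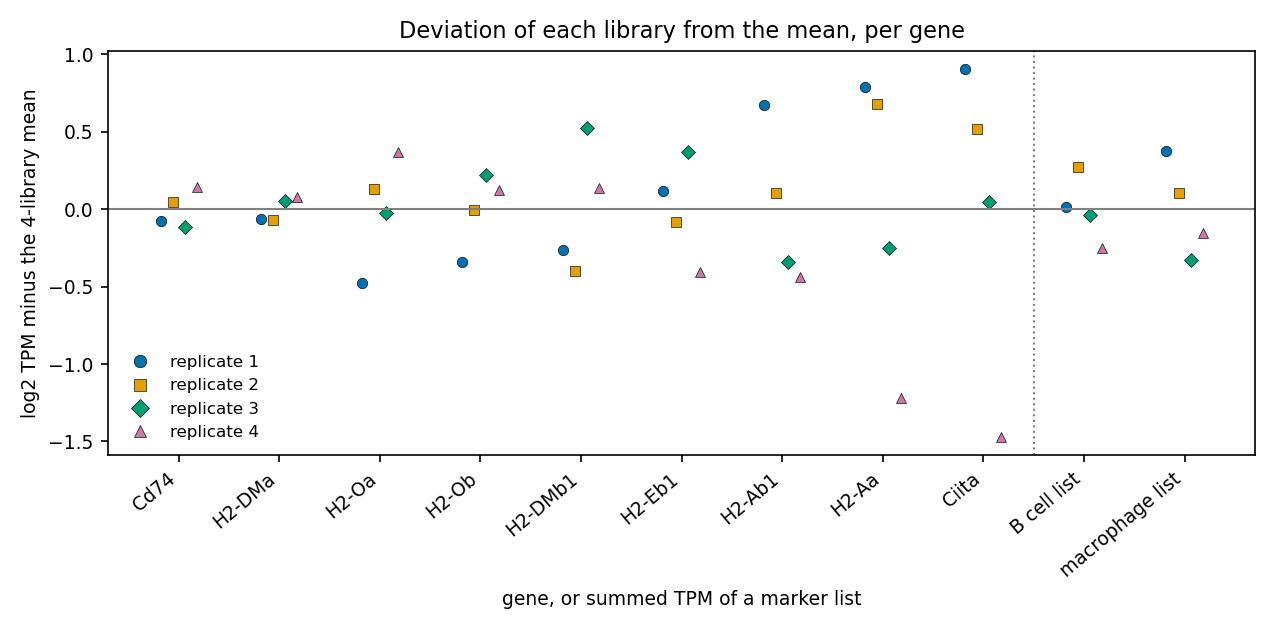
Deviation of log2 TPM from the 4-library mean for the 9 genes and, right of the dotted line, for the summed TPM of the B cell and macrophage marker lists; each symbol is 1 library. Ciita and H2-Aa fall furthest in replicate 4, by 1.47 and 1.22, while Cd74 and H2-DMa stay within 0.15 of their means.

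Among 12396 genes tested with edgeR for spread between libraries beyond genes of like abundance, 58 (0.468%) had an adjusted p under 0.05, and 661 (5.33%) had an unadjusted p under 0.05. Of the 9 genes, 7 passed the filter on low counts, which removed Ciita and H2-DMb1, and 0 of these 7 were called; 1 had an unadjusted p under 0.05. This was H2-Aa, with an unadjusted p = 0.0173 and an adjusted p = 0.790 by edgeR's quasi-likelihood test with Benjamini-Hochberg adjustment. Without replicate 4 its unadjusted p was 0.197. The adjusted p of Cd74 was 0.985. No tested gene of the other lists was called either. Not all were tested: of the markers, 2 of 10 dendritic cell, 2 of 10 macrophage, 1 of 6 epithelial and 4 of 12 B cell genes were. The lowest unadjusted p in these lists by the same edgeR test was 0.00788, for Foxp3 (adjusted p = 0.595). Among the factors at the promoter it was 0.0290, for Rfxap.

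**Figure D5:**
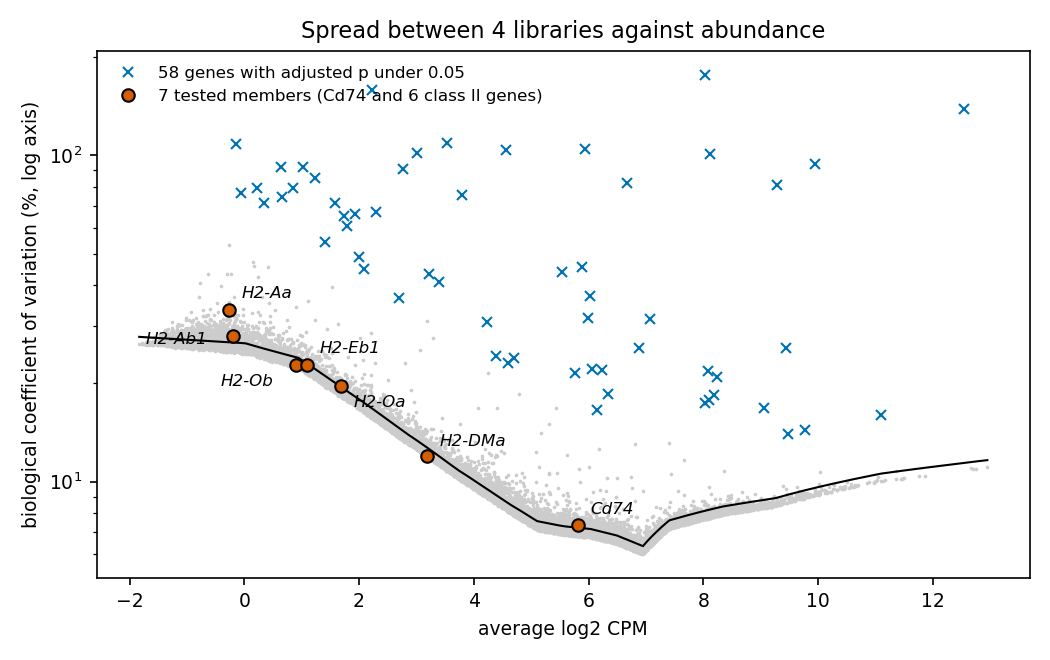
Moderated biological coefficient of variation (percent, log axis) against average log2 CPM for the 12396 genes tested by edgeR (grey), with the abundance trend (line), the 58 genes called (crosses) and the 7 tested genes of the class II set (circles). The circles lie on or near the trend, H2-Aa being furthest above it at 33.5% against 26.7%.

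Markers of cells that normally express class II were low in the same libraries, but some were of the size of the I-A chains. H2-Aa had a mean of 1.56 TPM and H2-Ab1 had 1.80. The 12 B cell markers summed to 4.93, 5.90, 4.77 and 4.10 TPM, led by Cd79b at 1.98 ± 1.19 TPM (SD, n = 4) and Cd79a at 1.03 ± 0.494. All 12 had fragments in at least 1 library, and 2 had a mean of at least 1 TPM. After the filter on low counts 4 of the 12 were tested, and edgeR called 0 of them, with 1 at an unadjusted p under 0.05.

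The 10 dendritic cell markers summed to 6.36 to 8.45 TPM, most of it from Batf3 at 5.90 ± 0.949 TPM, with Zbtb46 at 0.888 ± 0.145 and Xcr1 at 0.0991 ± 0.0326; Clec9a, Siglech, Cd209a and Clec10a had 0 fragments. The 10 macrophage markers summed to 8.93, 7.40, 5.50 and 6.19 TPM, led by Cd68 at 5.44 ± 1.23 TPM, Adgre1 at 1.399 ± 0.321 and Cd14 at 0.0719 ± 0.144, and Lyz2, C1qa and C1qb had 0 fragments. The 6 epithelial markers summed to 1.05 to 1.84 TPM, led by Epcam at 1.33 ± 0.324, with Krt18 and Aire under 0.03 TPM and Krt5, Krt8 and Foxn1 at 0 fragments. The B cell sum and the macrophage sum were lowest in replicates 4 and 3. The B cell sum joins markers with unlike orders of libraries. Of the 12, 5 were highest in replicate 1, whereas Cd79b, which led the sum, was lowest there at 0.405 TPM. The part of such cells in the class II values was not tested.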

How the data were processed

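RNA-seq of 4 regulatory T cell libraries was analysed from the deposited raw counts of fragments per gene, which the authors made with featureCounts 1.4.6-p4, per the file headers. Only pairs mapped at both ends counted, over exons, with strand setting 2 and GENCODE release 13, per the file headers, on mm10, per the labels. Multi-mapping reads and reads overlapping several genes were not requested. No aligner is named in the labels or headers except by a tag in an alignment name. TPM and FPKM were computed here from the counts and the deposited exon-union lengths, a deposited column in bp. Names came from GENCODE release 21 by gene ID without version; 50376 of 50600 matched.

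The smallest and largest libraries allow 0.0777 and 0.0322 CPM for 3 fragments. Intervals are 95% exact binomial and, like this floor, cover counting error only. Spread between libraries was tested in R 4.3.3 with edgeR 4.0.16 (TMM, filterByExpr, intercept-only robust quasi-likelihood fit, upper tail of F against the prior, Benjamini-Hochberg at 0.05). Alternatives used DESeq2 1.42.0 size factors, other scalings, thresholds and pseudocounts, and libraries left out.

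The genes and lists were chosen with earlier results of these data known. Named are the 9 genes, all genes of the lists for other class II genes, promoter factors, surface turnover, receptors of class II and the receptor role of Cd74, the 3 highest and all undetected genes of other lists, coding and pseudogenes of the interval, and the 3 genes nearest Cd74 in pattern. A gene that this rule names is not reported here.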

Additional observations from a re-analysis of the deposited data

How the results depend on the processing

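With 1 group, results are levels, within-library differences and spread. No paired analysis was possible because there is 1 group and no second one to share replicate numbers. The number of the 9 genes at or above the level was 7 at 1 TPM, also without any 1 library, 7 at 0.5 TPM and 4 at 2 TPM. Cd74 minus the class II chains was 4.47 to 5.71 under the other scales and 5.02 to 5.35 without 1 library. DM (H2-DMa and H2-DMb1, without H2-DMb2) minus DO was -0.11 and turned to 0.18 with FPKM. It was -0.93 with a pseudocount of 0.1 and -0.20 to -0.05 without 1 library. The count of variable genes was 58, but 110 with no filter, 36 with a non-robust prior, and 37 to 69 without 1 library, the lowest without replicate 1; the cause was not tested. edgeR called 0 of the genes it tested in each of 8 settings: 9 with no filter, 8 without replicate 4 (H2-DMb1 untested) and 7 in the other 6 (Ciita and H2-DMb1 untested). Of these, 1 had an unadjusted p under 0.05 in each setting except without replicate 4, where 0 had. Depth limits Ciita and H2-DMb1, with 11 to 25 and 2 to 6 fragments per library.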

Other observations

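Costimulatory genes usually found beside class II on antigen-presenting cells were present: Cd80 had 11.5 ± 1.45 TPM (SD, n = 4), Cd40 10.5 ± 0.944, Cd70 2.27 ± 0.761 and Cd86 1.97 ± 0.582.

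The protein-coding genes whose deviations from their own mean lay nearest to those of Cd74, by Euclidean distance of log2 TPM over 4 libraries among 10379 genes, were Atp6v0c at 0.0199, Zfp511 at 0.0279 and Mrpl52 at 0.0304. The median distance was 0.282, and 124 genes lay within 0.1. Atp6v0c had 25.0, 27.5, 24.8 and 29.2 TPM in replicates 1 to 4.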
